A study of Mus musculus with 4 samples.

Results

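IgLONs and SynCAMs are immunoglobulin-type adhesion proteins of the neuronal surface. IgLONs are held in the outer leaflet of the membrane by a GPI anchor, whereas SynCAMs cross the membrane, adhere to each other across the synaptic cleft and bind scaffold proteins with their short tails. Both families take part in neurite growth and in the formation of synapses. Elavl proteins bind U-rich and AU-rich stretches of RNA, in introns of precursor transcripts, where they influence splicing, and in 3′ UTRs, where they influence stability and translation.

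The genes described are the 5 IgLON genes, Lsamp, Ntm, Opcml, Negr1 and Iglon5, and the 4 SynCAM genes, Cadm1, Cadm2, Cadm3 and Cadm4, taken from 21900 protein-coding genes of the reference. Their Elavl binding sites were all deposited peaks that overlapped a gene's span by at least 1 nt and lay on the strand of most of that gene's peaks. This gave 1739 of 97775 peaks in mouse cortex and 9 of 7335 in N2A, a mouse neuroblastoma cell line. The sites were mapped by HITS-CLIP, in which ultraviolet light fixes a protein to the RNA it touches and the bound fragments are sequenced. The labels give 3 cortex samples, made with a 25 nt degenerate linker, and 1 N2A sample, made with a 7 nt linker, so linker and source cannot be told apart. The cortex list is marked 2 month, which the labels do not explain, and no genotype, strain, treatment or antibody is stated in the sources used here.

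For each group a single peak list was deposited, whose peaks are 50 to 51 nt wide and carry a p-value but no read count. Depth is therefore unknown, no value belongs to a single sample, and no spread between replicates could be computed. The members were chosen by their peaks in these lists, with earlier results known, so all values below are descriptions without a test. In the cortex list, all 5 neuron markers, 3 of 4 astrocyte markers and 4 of 4 oligodendrocyte markers carried peaks, against 1 of 4 microglia markers (P2ry12) and 1 of 3 endothelial markers (Flt1). Over all coding genes, 40.8% carried a cortex peak. In the N2A list, 4 of 7 sympathoadrenal and neuroblastoma markers carried peaks (Gata2, Hand2, Phox2a and Lin28b), where 14.4% of all coding genes did. In cortex 2 of these 7 did, Lin28b with 4 peaks, as many as in N2A, and Gata3 with 1. Of the neuron markers, 2 of 5 carried N2A peaks (Snap25 and Syt1), and no marker of the glial or endothelial lists did. Cortex is a mixture of these cells, in which fewer cells of a type and less bound RNA per cell cannot be told apart.

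Cortex peaks lay in 8 of the 9 genes, where 40.8% of all coding genes held at least 1. N2A peaks lay in 1 of the 9, Cadm1, where 14.4% of all coding genes did. Because membership of the peaks was fixed by these same lists, nothing is read from either share. No member had a peak on the opposite strand. For the 7 genes with both peaks and an entry in the RefSeq start table, the strand of the peaks was the annotated one. Neither strand count was made over all coding genes, and how strands were assigned in peak calling is not stated.

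The most cortex peaks of the IgLONs were found in Lsamp, the limbic system-associated membrane protein, with 529 over a span of 2197 kb (chr16:39984254-42181679, plus strand). Opcml, which encodes the opioid-binding cell adhesion molecule, held 225 over 1135 kb (chr9:27790716-28925410, plus strand). Negr1, the neuronal growth regulator also called Kilon, held 223 over 754.7 kb (chr3:156561790-157316464, plus strand). Ntm, encoding neurotrimin, held 169 over 968.5 kb (chr9:28994749-29963269, minus strand). Iglon5, whose human protein is the target of autoantibodies in a sleep and movement disorder, was the exception. It spans only 17.31 kb (chr7:43472901-43490211), and neither list held a peak in it. A gene without a listed peak may still be bound below the authors' threshold.

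Among the SynCAMs, Cadm2 held 501 cortex peaks over 965.5 kb (chr16:66655416-67620917, minus strand). Cadm1, the SynCAM whose expression in non-neuronal cells induces presynaptic contacts, held 78 over 332.1 kb (chr9:47530170-47862280, plus strand). The short genes held few. Cadm3, an axonal adhesion protein, had 9 peaks over 36.25 kb (chr1:173331892-173368139, minus strand), and Cadm4, its partner on myelinating glia, had 5 over 22.51 kb (chr7:24482023-24504533, plus strand). At least 50 cortex peaks were found in 1.26% of all coding genes and in 6 of the 9 members. By number of cortex peaks Lsamp ranked 6 and Cadm2 ranked 9 among all coding genes, followed by Opcml at 30, Negr1 at 33, Ntm at 45 and Cadm1 at 143.

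**Figure D1:**
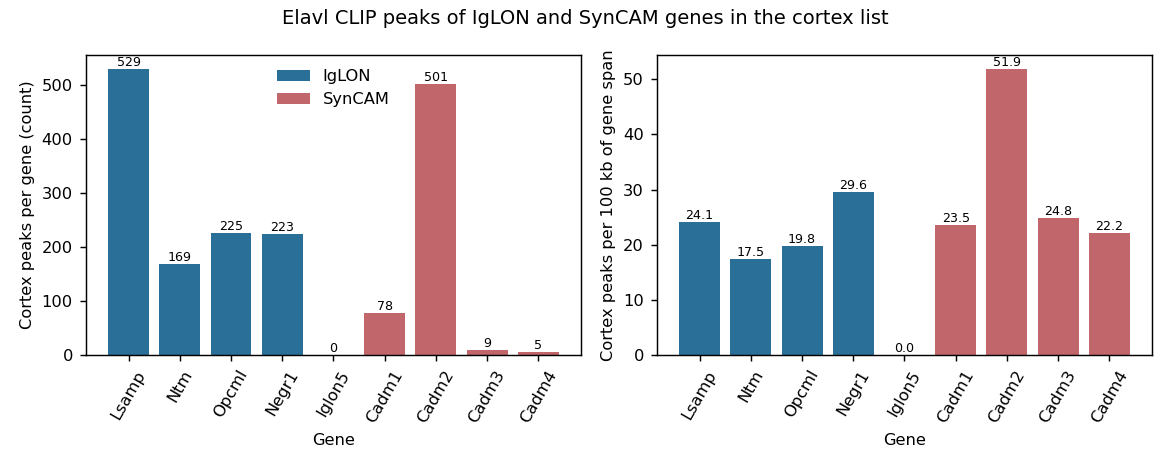
Cortex peaks of each IgLON gene (blue) and SynCAM gene (red), as a count (left) and per 100 kb of gene span (right). Counts run from 0 in Iglon5 to 529 in Lsamp, whereas 7 of the 8 genes with peaks lie between 17.45 and 29.55 peaks per 100 kb, and Cadm2 stands at 51.89.

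Much of the range in counts went with gene length. Per 100 kb of span, the 8 genes with peaks held 17.45 (Ntm), 19.83 (Opcml), 22.21 (Cadm4), 23.49 (Cadm1), 24.07 (Lsamp), 24.83 (Cadm3), 29.55 (Negr1) and 51.89 (Cadm2). A count of 529 in Lsamp and a count of 5 in Cadm4 thus gave nearly the same density, and Cadm2 was the only member above 30 per 100 kb when all deposited peaks were used. The median over the 8935 coding genes with a cortex peak was 12.3, and the 8 members lay between percentiles 63.5 (Ntm) and 94.2 (Cadm2) of that distribution. For the 5 members over 500 kb, the densities lay at percentiles 76.9 to 97.1 among the 208 coding genes of that size with a cortex peak, whose median was 8.3.

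**Figure D2:**
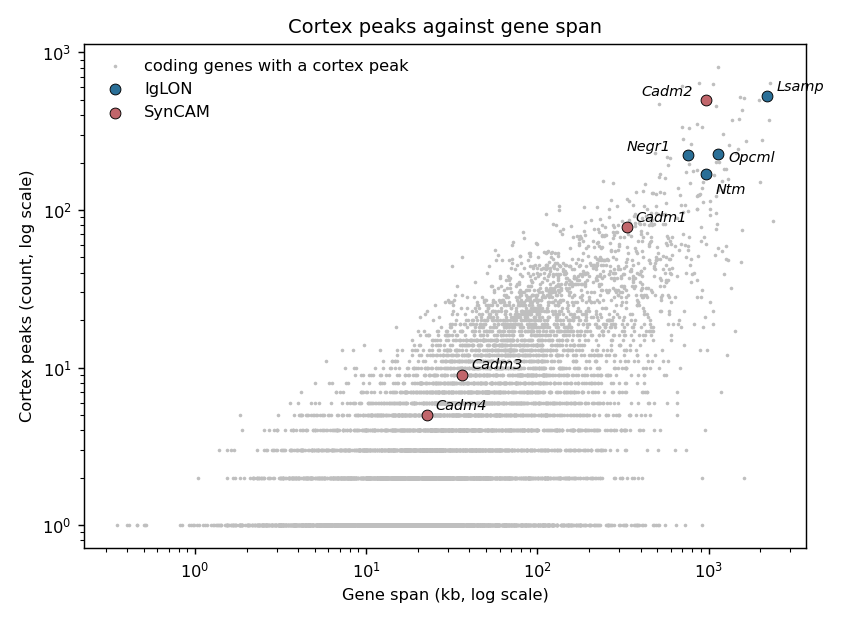
Number of cortex peaks (log scale) against gene span in kb (log scale) for 8935 coding genes with a cortex peak (grey), with the 4 IgLON genes (blue) and 4 SynCAM genes (red) that had peaks. Peak number among the members broadly rises with span, from Cadm4 at 22.51 kb with 5 peaks to Lsamp at 2197 kb with 529. All members shown lie above the median density of the coding genes with a cortex peak, 12.3 per 100 kb.

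Neurexins and neuroligins, the other large set of trans-synaptic adhesion genes, and contactins, GPI-anchored like the IgLONs, are set beside them. The 6 neurexin and neuroligin genes held 3 to 633 cortex peaks, with a median of 32.9 per 100 kb. The 6 contactin genes held 2 to 93, with a median of 8.41. For the 9 IgLON and SynCAM genes, Iglon5 included, the median was 23.5 per 100 kb. In N2A, 1 neurexin or neuroligin (Nlgn2, 1 peak) and 1 contactin (Cntn3, 2 peaks) had peaks. No difference between these sets was tested.

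The positions of the peaks along the genes were not used to choose them. In the 6 genes with at least 50 cortex peaks, nearly all peaks lay more than 5 kb before the gene end. The share within 5 kb of the gene end was 0.897% in Negr1, 0.998% in Cadm2, 1.13% in Lsamp, 1.28% in Cadm1, 2.22% in Opcml and 2.37% in Ntm. That window is a small part of these spans. Relative to the rest of the gene, its peaks per kb were 5.13 times as many in Opcml, 5.03 in Lsamp and 4.67 in Ntm. The values were 1.94 in Cadm2, 1.36 in Negr1 and 0.85 in Cadm1, from 1 to 6 peaks per window. The same ratio was not computed for other long genes, so nothing particular to these members is read from it. Over all 9 members the share within 5 kb of the gene end was 32 of 1739 peaks, or 1.84% (Wilson 95% interval 1.31 to 2.59). It was 19.9% of the peaks in all coding genes and 2.84% in coding genes over 500 kb. The members with peaks include Cadm1, Cadm3 and Cadm4, which are shorter than 500 kb, so that last value is for an unlike set. Intervals of this kind, given for counts of peaks, cover counting error only, since the peaks of a list are not replicates. Cadm3 and Cadm4 differed from the long members, with 7 of 9 and 2 of 5 peaks in the last 5 kb.

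In Lsamp, Opcml and Negr1 the strongest peaks by deposited p, which is used here only to rank peaks within a list, lay at or near the gene end. In Lsamp, the strongest peak (chr16:42174660-42174711, p of 2.02e-307) lay 6.99 kb before the gene end and ranked 76 among all cortex peaks. The next, at chr16:42181346-42181396 and chr16:42178141-42178192, lay 0.308 and 3.51 kb before the end. In Opcml, the strongest peak (chr9:28920844-28920895, p of 5.71e-192) lay 4.54 kb before the end and the next 0.179 kb before it. In Negr1, both strongest peaks, with p of 6.11e-83 and 9e-83, lay 0.931 and 3.38 kb before the end. These 3 IgLON genes thus carried a pair or more of very strong sites at the end of a long gene body. Such sites were also found at the ends of Ntm and Cadm2.

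Ntm and Cadm2 had their strongest peak deep inside the gene instead. The strongest Ntm peaks (chr9:29375978-29376029 and chr9:29366921-29366972) lay 381 and 372 kb before the gene end, with p of 2.36e-132 and 3.02e-116. The next 3 lay within 1.07 kb of the end. The strongest Cadm2 peak (chr16:67268447-67268498, p of 7.38e-218) lay 613 kb before the end, and the next (chr16:66656115-66656166, p of 4.07e-172) 0.725 kb before it. The peak of rank 4 in Cadm2, with p of 4.44e-93, lay 4.66 kb before the end. In all, the strongest cortex peak lay within 5 kb of the gene end in 4 of the 8 members with peaks (Opcml, Negr1, Cadm3 and Cadm4), against 59.8% of all coding genes with a peak and 32.7% of those over 500 kb.

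On the scale of −log10 of the deposited p, peaks in the last 5 kb had a median of 74.5 in Lsamp (6 peaks), 103 in Ntm (4), 82.1 in Negr1 (2), 55 in Cadm2 (5) and 21.6 in Opcml (5). The medians for the other peaks of these genes were 1.9, 2.06, 2.26, 2.39 and 2.23. Over all coding genes longer than 500 kb the medians had the same order and lay closer together, at 4.67 for the 689 peaks in the last 5 kb and 1.99 elsewhere, and the difference in size was not tested. Cadm1 showed the reverse order, with a single weak peak in its last 5 kb at 1.68, against a median of 2.65 for the rest.

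**Figure D3:**
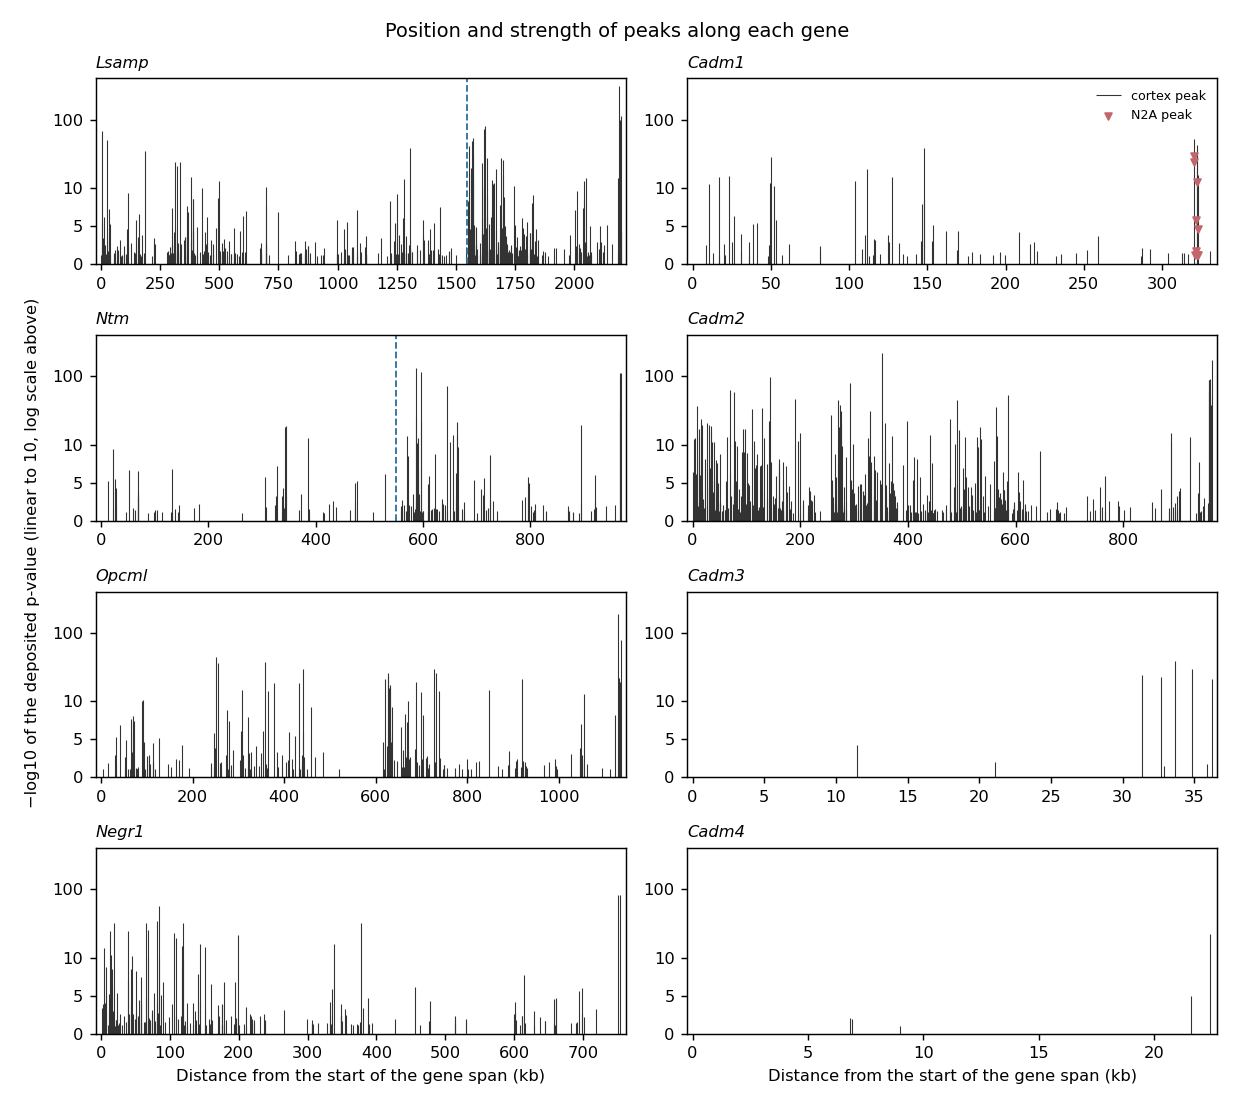
Peaks of the 8 members with peaks, by distance in kb from the start of the gene span along the gene's strand and by −log10 of the deposited p (linear to 10, log scale above). Black lines are cortex peaks, red triangles the 9 N2A peaks of Cadm1, and dashed lines mark the annotated internal starts of Lsamp and Ntm. In the long genes most peaks lie inside the gene, and in Lsamp, Opcml, Negr1, Ntm and Cadm2 a narrow group of strong peaks stands at or near the gene end.

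Inside the gene bodies the peaks were unevenly spread. Of the cortex peaks, 79.8% lay in the first 50% of the span in Negr1, 69.9% in Cadm2, 62.8% in Cadm1, 50.2% in Opcml, 39.7% in Lsamp and 36.1% in Ntm. The median over 275 coding genes with at least 50 cortex peaks was 58.9%, with quartiles of 46.8% and 69.9%. In bins of 50 kb from the start, Negr1 held 45, 40, 27, 27 and 14 peaks before falling to 2, and Cadm2 held 64 peaks in the first bin and 42 in the second. The largest rise between neighbouring bins was from 12 to 50 peaks at 250 kb in Cadm2. It was 2 to 16 at 300 kb in Negr1 and 7 to 20 at 100 kb in Cadm1. In Opcml it was 0 to 24 at 600 kb. The RefSeq start table lists no start of Cadm2, Negr1 or Opcml there and has no entry for Cadm1. In Lsamp and Ntm, unlike Negr1 and Cadm2, the densest 50 kb lay far from the start of the span. It lay at 1550 to 1600 kb with 41 peaks in Lsamp and at 550 to 600 kb with 28 peaks in Ntm.

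At the densest places of Lsamp and Ntm the annotation lists starts of these genes inside the span. The RefSeq start table for GRCm38.p6 lists an internal start of Lsamp at position 41532826 of chromosome 16, 1549 kb into the span, and one of Ntm at position 29413452 of chromosome 9, 549.8 kb into the span on the minus strand. A second Ntm start lies nearby at 29412685 and was counted with it as 1 start, and the table lists no Ntm start at the outer end of the span. The 250 bases before each of these starts are shown because peaks were denser in the 100 kb after them than in the 100 kb before. Letters in capitals mark each CG dinucleotide, and both sequences read 5′ to 3′ on the gene's strand. The first is chr16:41532576-41532825 on the plus strand and the second chr9:29413453-29413702 on the minus strand.
Lsamp internal start: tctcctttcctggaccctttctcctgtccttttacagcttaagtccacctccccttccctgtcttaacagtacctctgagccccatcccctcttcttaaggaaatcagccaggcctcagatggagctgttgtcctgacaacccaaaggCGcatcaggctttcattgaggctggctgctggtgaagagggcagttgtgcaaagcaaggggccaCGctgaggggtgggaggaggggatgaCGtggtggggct
Ntm internal start: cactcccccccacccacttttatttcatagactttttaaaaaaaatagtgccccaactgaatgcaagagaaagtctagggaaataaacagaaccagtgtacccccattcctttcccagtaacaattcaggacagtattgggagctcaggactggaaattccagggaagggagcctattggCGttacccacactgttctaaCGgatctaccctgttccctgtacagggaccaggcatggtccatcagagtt

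The Lsamp sequence held 3 CG dinucleotides and the Ntm sequence 2, against a median of 6 in the 250 bases before all 32851 listed starts. The 250 bases before the outer Lsamp start held 12, and those before the second Ntm start 14. None of the 10 listed start windows of the members, each running from 250 bases before to 50 after a start, held a peak of either list. The share over all listed start windows was not computed, and such short windows hold few peaks, so nothing is read from this count. Cadm1 has no entry in the table.

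In the 100 kb before the internal Lsamp start there were 6 cortex peaks, and in the 100 kb after it 79. The ratio was 13.2 (exact 95% interval for counting error 5.79 to 37). In successive 50 kb steps from 200 kb before the start, Lsamp had 11, 8, 4 and 2 peaks, then 41, 38, 30, 26, 28 and 26 after it, followed by 5 and 2. The last peak before the start lay 4.28 kb away and the first after it 2.14 kb away. For Ntm the counts were 7 in the 100 kb before and 47 in the 100 kb after, a ratio of 6.71 (3.02 to 17.6). The last Ntm peak before the start lay 21.1 kb away and the first after it 9.54 kb away. Both listed Ntm starts lie in this stretch without peaks, so the place of the step is known only to that width. Over the whole span, Lsamp had 18.1 peaks per 100 kb before its internal start and 38.2 after it, and Ntm 11.5 and 25.3.

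The step was set beside all 64 internal starts, in 49 coding genes, that lay at least 100 kb from either end of the span and had at least 20 cortex peaks within 100 kb. There, 25.0% had at least 2 times as many peaks after the start as before it, 15.6% had the opposite, and the median ratio was 0.968 with 0.5 added to each count. By that ratio Lsamp ranked 4 and Ntm 7. The same ranking placed Cacna1d, a calcium channel, first with 0 peaks before and 34 after, and Nlgn1, a neuroligin, eighth with 7 and 46. The window of 100 kb and the choice of internal starts were made after the positions of these peaks had been seen. With windows of 50 or 200 kb, or peaks under p of 0.01 alone, the ratio ranged from 5.4 to 22.5 in Lsamp and from 4.35 to 14 in Ntm.

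**Figure D4:**
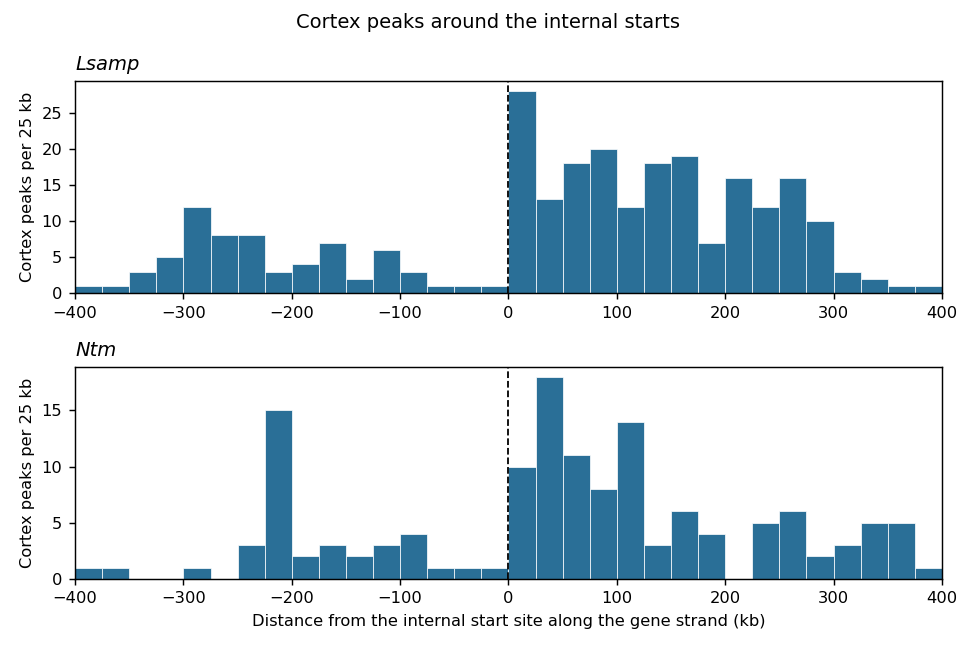
Cortex peaks per 25 kb within 400 kb of the internal starts of Lsamp (top) and Ntm (bottom), by distance in kb along the gene's strand, with the start at the dashed line. Peaks rise from 6 in the last 100 kb before the Lsamp start to 79 in the next 100 kb, and from 7 to 47 in Ntm.

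The only Opcml start in the table lies near the start of its span. No cortex peak lay between 520.2 and 616.1 kb from the start of its span, the widest empty stretch in any of the 6 genes with at least 50 peaks. In bins of 50 kb from 400 kb onward, Opcml held 17, 3, 1, 0, 24, 21 and 17 cortex peaks. In Negr1 the widest empty stretch ran from 529.8 to 600.4 kb, and in Ntm from 182.7 to 261.9 kb. In Cadm2 it measured only 41.8 kb and in Cadm1 27.7 kb. These stretches were picked for their width.

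Neighbouring cortex peaks of a gene lay a median of 0.95 kb apart in Cadm2 and 1.03 kb in Negr1, 1.58 kb in Lsamp, 1.81 kb in Ntm, 2.29 kb in Opcml and 2.52 kb in Cadm1. The median of this value over the 275 coding genes with at least 50 peaks was 1.71 kb. Peaks closer than 50 nt were rare, since merging them left 1726 clusters from 1739 peaks.

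The profiles of the 6 genes with at least 50 cortex peaks were compared with each other, without a range from pairs of other genes beside them. Shares of cortex peaks over 20 equal bins from gene start to gene end gave Pearson correlations of -0.334 to 0.595 for the 15 pairs of the 6 genes, with a median of 0.00896. Negr1 and Cadm2 formed the most similar pair. All bins of a gene come from the same list, and no p is given. Among 274 other coding genes with at least 50 cortex peaks, the profile most like Negr1 was that of Sgcz, a sarcoglycan (r = 0.936), and the one most like Cadm2 was that of Lrrtm4, a leucine-rich synaptic adhesion gene (r = 0.861). Ntm was most like Ctnna3, a catenin (r = 0.85), with Celf2, an RNA-binding splicing regulator, next (r = 0.766). For Cadm1 the nearest was the phospholipase gene Plcb1 (r = 0.75), for Lsamp Ccser1 (r = 0.677) and for Opcml Gm38667 (r = 0.487). The second nearest genes were Dip2c for Negr1 (r = 0.904), Frmd5 for Cadm2 (r = 0.76), Tenm1 for Cadm1 (r = 0.678), Cadps for Lsamp (r = 0.606) and Mbd5 for Opcml (r = 0.448). These genes were picked as the highest of 274 correlations over 20 bins, so their r is high by selection.

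Some peaks touched other genes that share the span, and could belong to them where the strand is the same or not listed. In Lsamp, 32 of 529 peaks also touched another gene, 30 of them Gm52229, a predicted coding gene on the same strand. In Ntm, 24 of 169 also touched the long noncoding RNA genes Gm15520 (11) and Gm15521 (13), whose strand the start table does not give. In Cadm2, 8 of 501 also touched 1700010K23Rik, which the start table places on the strand opposite to these peaks. For Cadm3 the share was larger. Of its 9 peaks, 3 also touched Ackr1, a chemokine receptor gene that overlaps the end of Cadm3 on the same strand, and 1 also touched Aim2 on the opposite strand. Leaving out all peaks with another gene on either strand left 5 peaks in Cadm3. Opcml and Ntm face each other on chromosome 9 with their ends 69.3 kb apart, and 1 cortex peak, on the plus strand, lay between them.

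Cadm3 carried its strongest peak at chr1:173334488-173334539 (p of 5.07e-40), 2.62 kb before the gene end and outside Ackr1. The second, at chr1:173333274-173333325 (p of 1.01e-30), lay within the Ackr1 span. Cadm4 carried a single strong peak, at chr7:24504399-24504449 (p of 2.85e-23), 0.109 kb before its end. Its other 4 peaks had p from 1.19e-05 to 0.0843.

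In N2A, Cadm1 was the only member with peaks. All 9 lay on the plus strand within 2.65 kb (chr9:47850493-47853138), between 9.14 and 11.8 kb before the gene end as annotated. At least 9 N2A peaks were found in 0.283% of all coding genes. The strongest, chr9:47850824-47850875, had a p of 9.23e-30 and ranked 287 of 7335 N2A peaks. The next, chr9:47850493-47850544, had a p of 6.48e-25, and chr9:47852294-47852345 a p of 4.28e-13. The other 6 ranged from 1.42e-06 to 0.0663, so the group consisted of a few strong and several weak sites.

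Cortex peaks of Cadm1 were spread over the gene, with 4 of 78 in the same 2.65 kb. Those 4 had p of 3.4e-53, 7.45e-30, 1.26e-42 and 2.93e-16, and they included the strongest and second strongest cortex peaks of the gene. The other 74 lay elsewhere, 73 of them before the N2A group. Of the 9 N2A peaks, 3 overlapped a cortex peak, by 2, 5 and 43 nt (33.3%, Wilson 95% interval 12.1 to 64.6), against 41.6% of all N2A peaks. The strongest N2A peak and the strongest cortex peak of Cadm1 were 49 nt apart by their centres and shared 2 nt. The N2A peaks without an overlap had their nearest cortex peak 108.5 to 605.5 nt away.

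**Figure D5:**
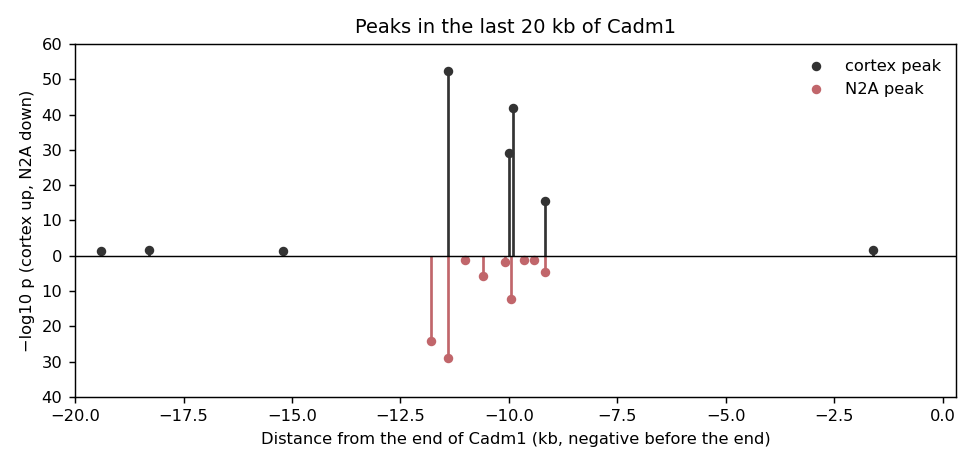
Peaks in the last 20 kb of Cadm1 by distance in kb from the gene end (negative before it) and −log10 of the deposited p, with cortex peaks upward and N2A peaks downward. The 9 N2A peaks and 4 cortex peaks stand between 9.14 and 11.8 kb before the end, and the p-values of the lists are not comparable in height with each other.

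The other members with at least 50 cortex peaks, Lsamp, Ntm, Opcml, Negr1 and Cadm2, had no N2A peak. Of the 275 coding genes with at least 50 cortex peaks, 32.0% had an N2A peak, and of the 6 members among them 1 did. RNA levels are not in these files, so no peak count is set against the level of its transcript.

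Related genes were read in the same way from lists written with earlier results known. Of 12 further surface molecules of the immunoglobulin superfamily, 9 had cortex peaks and 3 had N2A peaks, where 40.8% and 14.4% of all coding genes did. Ncam2, a neural cell adhesion molecule, had 147 cortex peaks and no N2A peak. Ncam1, its paralogue, had 56 and 10, and was thus, like Cadm1, a gene with many peaks in both lists. Nectin1 had 4 and 1, and Nectin3, an adhesion partner of it, had 15 and 1. Nectin2, Nectin4 and Pvr had none in either list. Thy1, a GPI-anchored protein of neurons, had 3 cortex peaks in a span of only 5.196 kb.

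Of 16 genes for cytoplasmic proteins that bind SynCAM tails or belong to the same scaffold families, 15 had cortex peaks, Lin7b being the exception, and 8 had N2A peaks, beside the same 40.8% and 14.4% of all coding genes. The short gene Lin7c, a PDZ scaffold partner of Cask, had 7 cortex and 6 N2A peaks in 10.06 kb. Magi1, a PDZ scaffold, had 43 and 5. The band 4.1 genes Epb41, Epb41l1 and Epb41l2, which link membrane proteins to the spectrin skeleton, had 29, 6 and 4 cortex peaks and 3, 2 and 3 N2A peaks. Epb41l3 had 26 and none. Cask, Mpp6 and Sdcbp had 1 N2A peak each, beside 31, 11 and 7 cortex peaks. Farp1, a guanine nucleotide exchange factor that acts downstream of SynCAM 1, had 18 cortex peaks and no N2A peak.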

How the data were processed

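Elavl HITS-CLIP was done on 3 cortex samples and 1 N2A sample of mouse. Per the file headers, every peak of the 2 lists has a position, a strand, the name of its list and a deposited p-value, at most 0.0999 in cortex and 0.0997 in N2A. Adjustment of these p-values, the peak caller and its filters, and how the cortex samples were combined are not stated there or in the labels. Novoalign and the human build hg19 are named in the submitters' processing notes. The coordinates, which are the authors' deposited values, were read as GRCm38 because 94.9% of cortex and 94.6% of N2A peaks touched a coding gene span of RefSeq GRCm38.p6, against 42.0% and 44.8% after a shift by 1 Mb. Whether they count from 0 or 1 is not stated.

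Gene spans and names came from the RefSeq table, and start sites and sequences from the RefSeq table of start windows for GRCm38.p6. A peak counted for every coding gene whose span it overlapped. Distances were taken from the peak's centre. The N2A and cortex peaks overlapped if they shared at least 1 nt on the same strand. Exons and peak sequences were not used here, so introns, exons and motifs at the sites were not analysed. All 9 members are named, related genes by list, and the 2 most similar profiles per gene with at least 50 cortex peaks. One marker of the sympathoadrenal list is not reported here. Members and lists were chosen with earlier results of these data known. Peak assignment was tested on simulated data. Python 3.11.15, pandas 2.3.3, scipy 1.17.1 and statsmodels 0.14.6 were used.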

Additional observations from a re-analysis of the deposited data

How the results depend on the processing

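Peaks are not replicates, and no value per sample exists, so leaving out a replicate was not possible. No paired analysis was possible because the lists hold no values per sample. The planned share of peaks with a U-rich motif was not run, since it needs a genome. The number of members with peaks, 8 in cortex and 1 in N2A, was the same with only peaks under p of 0.05 or 0.01, the stronger 50% of each list, both strands, peaks in no other gene, or spans extended by 5 kb. The number of peaks fell with the stricter choices by their construction. Under p of 0.01 it was 934 in cortex and 5 in N2A, and in the stronger 50% it was 927 and 5, and the cortex density fell from 27 to 14.5 per 100 kb. Of the 9 single-gene counts above 0, 8 (all but that of Cadm3) moved by more than 1.5 times under each of these choices, and 1 (Cadm3) did when peaks in other genes were left out. The share of cortex peaks within the end window was 0.978% for 2 kb in place of 5 kb, and 3.1% for peaks under p of 0.01. With an overlap of at least 25 nt, 1 of the 9 N2A peaks met a cortex peak, against 3. The median distance between neighbouring peaks rose from 1.36 to 2.32 kb under p of 0.01. After seeing the data, other windows were tried at the internal starts, and the direction held in each. The Lsamp ratio, 13.2 with 100 kb, was 20.5 with 50 kb, 5.4 with 200 kb and 22.5 for peaks under p of 0.01, and the Ntm ratio, 6.71, was 14, 4.35 and 6. Unknown depth limits every statement on a gene without peaks.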
